A study of Homo sapiens with 6 samples.

Results

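The 43 nuclear hormone receptors examined here are the listed members of 1 family of transcription factors, measured in SH-SY5Y neuroblastoma cells after 4 h with or without bilirubin. Members were found through the gene symbols of the array annotation, and a probe set counted when a receptor was named for it, alone or with another gene. By that rule 37 receptors were represented by 88 of the 22215 probe sets tested, and 3 of these 88 named both NR1D1 and THRA. NR1H2, NR1H4, NR1I2, HNF4A, NR2F2 and NR0B1 had no probe set by this rule and were not analysed here.

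SH-SY5Y is an established human neuroblastoma line with neuronal features. In 3 flasks the cells received free bilirubin (Bf), the part of unconjugated bilirubin (UCB) not bound to protein, at 140 nM (Bf 140 nM), and in 3 other flasks they received the solvent (DMSO 0.6%). Both groups stayed for 4 h in their medium before total RNA was labelled and hybridised to Affymetrix GeneChip oligonucleotide arrays, 1 array for each flask. All 6 arrays therefore come from 1 line under 1 solvent. The study's methods describe the flasks as separate and the replicates as independent. Per the study's methods the bilirubin was diluted in medium that held foetal bovine serum, a source of steroid, retinoid and thyroid hormones.

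Nuclear receptors are transcription factors whose activity is set by small fat-soluble ligands. Each carries a zinc-finger domain that reads a short DNA half-site and, in nearly every member, a ligand-binding domain that exchanges corepressors for coactivators when a hormone or metabolite docks. Steroid receptors bind as homodimers after release from chaperones, receptors for thyroid hormone, retinoic acid, vitamin D and lipids pair with a retinoid X receptor (RXR), and several orphan receptors have no agreed ligand. In sympathetic neuroblasts, the lineage of these cells, retinoic acid acting through its receptors is a known differentiation signal. Bilirubin itself is known to activate the liver receptor CAR and to bind PPAR-alpha. Their transcript levels were thus compared between Bf 140 nM and DMSO 0.6%.

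Values are normalised levels on the log2 scale of the deposited table, and differences are Bf 140 nM minus DMSO 0.6% unless a pair or a replicate number is named. That scale is compressed at low intensity, so the fold of a dim probe set is understated. A pair is the Bf 140 nM and the DMSO 0.6% array of 1 replicate number, and each SE is that of the unpaired limma fit. A difference passed the threshold when its Benjamini-Hochberg adjusted p over all probe sets tested was under 0.10. In bulk RNA, fewer cells with a transcript and less of it per cell cannot be told apart. Probe sets are named by their array identifiers, in which _s_ marks probes shared by several transcripts and _x_ probes that may also bind other sequences. Of the 13 noradrenergic neuroblast markers measured, 11 lay above the background-like bound defined below on all 6 arrays. HAND2 did so on 3 arrays and TH, which makes the precursor of dopamine, on 0. The mean of these markers lay between 11.20 and 11.58 on the Bf 140 nM arrays and between 11.33 and 11.41 on the DMSO 0.6% arrays. Of 13 mesenchymal or Schwann-like markers 7 lay above the bound on all arrays, among them VIM and TWIST1, whereas COL1A2, CD44, S100B, YAP1 and PRRX1 did so on 0 arrays and SOX10 on 1. Their mean lay between 8.98 and 9.09 in Bf 140 nM and between 8.97 and 9.15 in DMSO 0.6%. The array of DMSO 0.6% replicate 3 stood apart in RNA completeness, since its beta-actin signal was 2.21 higher at the 3' than at the 5' end, against 0.10 to 0.89 on the other 5 arrays. Leaving it out moved the difference of 36 of the 88 receptor probe sets by 0.05 or more and turned the sign of 23. Where a difference given for a single probe set moved by that much, the difference without that array is given beside it.

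The first question was which receptor transcripts gave a signal in these cells. As a bound for background-like signal on each array, the 90th percentile of 53 probe sets of genes restricted to other tissues, such as liver, pancreas and lens of the eye, was taken, and it lay between 7.78 and 8.04. Probe sets differ in their affinity, so a value over the bound does not prove a transcript and a value under it does not exclude one. Of the 88 receptor probe sets, 16 (18.2%) exceeded the bound on all 6 arrays, against 44.3% of all probe sets. In contrast, 62 receptor probe sets (70.5%) exceeded it on 0 arrays, against 43.7% of all. In all, 14 receptors had at least 1 probe set above it on every array, NR1D1 only through 31637_s_at, which also names THRA, and without the shared probe sets the number was 13. Another 21 had each of their probe sets at or below it on every array. RORB and ESR1 were above it on some arrays.

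**Figure D1:**
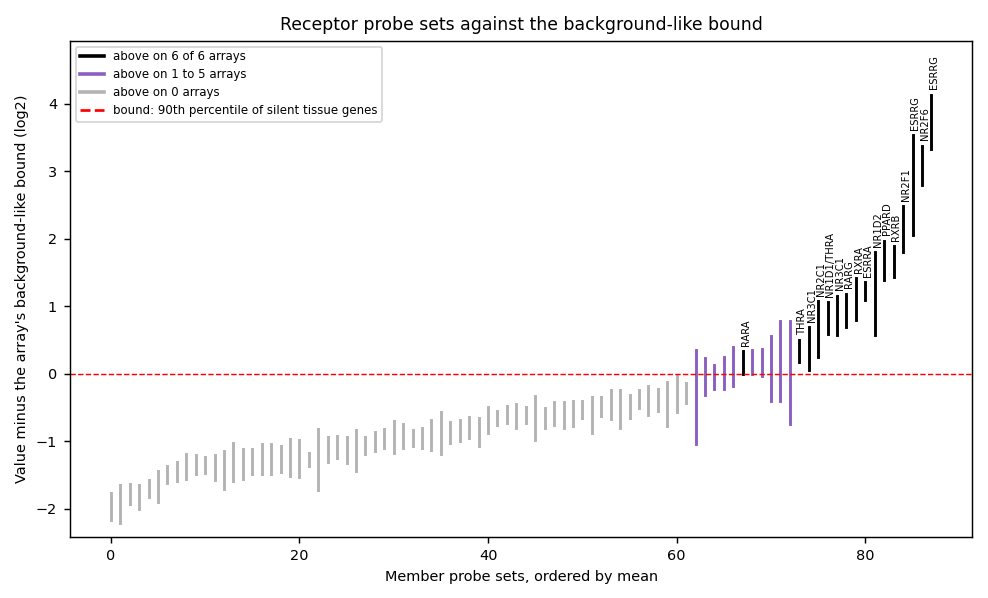
Value minus the array's background-like bound (log2) for the 88 receptor probe sets, ordered by their mean; each vertical line spans the 6 arrays, and the dashed line at 0 is the bound. The 16 black lines stay above 0, with both ESRRG probe sets and NR2F6 among the highest, and 62 grey lines stay at or below it.

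Among the receptors with a signal were orphans known for roles in neurons and in metabolism. ESRRG, an estrogen-related receptor that drives oxidative metabolism genes and needs no hormone, had both of its probe sets far above the bound. Its probe set 207981_s_at read 11.41, 11.36 and 11.91 in the 3 Bf 140 nM flasks and 11.44, 11.67 and 11.76 in the 3 DMSO 0.6% flasks. The groups overlapped, and the difference was -0.06 (SE 0.17), or 0.01 without DMSO 0.6% replicate 3. ESRRA, its relative and a partner of the coactivator PGC-1 alpha, read between 8.93 and 9.25 over the 6 arrays with probe set 1487_at, with a difference of -0.07 (SE 0.11), which was -0.00 without that array. ESRRB, which acts in pluripotent cells, stayed below the bound on all arrays. The COUP-TF receptors, which repress transcription and help to set regional identity in the developing nervous system, were represented by NR2F1 and NR2F6. NR2F1 read 10.03, 9.83 and 10.26 in Bf 140 nM and 10.00, 10.07 and 10.36 in DMSO 0.6%, so the groups overlapped, with a difference of -0.10 (SE 0.15). It was 0.01 without DMSO 0.6% replicate 3 and 0.00 without Bf 140 nM replicate 2. NR2F6 read 11.01, 10.86 and 11.15 against 11.07, 10.98 and 10.83 with probe set 209262_s_at, where the replicate 3 pair alone was higher in Bf 140 nM and the difference was 0.05 (SE 0.12), turning to -0.02 without DMSO 0.6% replicate 3. NR2C1, the testicular receptor TR2, read 8.74, 8.27 and 8.85 against 8.58, 8.62 and 8.33, a difference of 0.11 (SE 0.17) whose sign was opposite in pair 2 and which was 0.02 without DMSO 0.6% replicate 3. Its relative NR2C2 stayed below the bound.

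Of the RXR partners, RXRA and RXRB had a probe set above the bound on all arrays. RXRA read between 8.70 and 9.19 with probe set 202449_s_at, and the difference was 0.01 (SE 0.15). RXRB read between 9.47 and 9.75 with probe set 209148_at, and the difference was -0.03 (SE 0.11). For both, the values of the groups interleaved. RXRG, the form found mainly in muscle and brain, stayed between 6.34 and 6.84, below the bound, with Bf 140 nM higher in 3 of 3 pairs and a difference of 0.11 (SE 0.14). It was 0.02 without DMSO 0.6% replicate 3 and 0.01 without Bf 140 nM replicate 2.

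Among the receptors for retinoic acid, RARA and RARG each had 1 probe set above the bound on 6 arrays, whereas the 5 probe sets of RARB lay below it on all. RARG read 8.78, 8.86 and 8.73 in Bf 140 nM and 9.08, 8.67 and 8.73 in DMSO 0.6% with probe set 204189_at. These groups overlapped, with a difference of -0.03 (SE 0.13). Its probe set 204188_s_at, above the bound on 5 arrays, read 7.89, 8.14 and 7.89 against 8.25, 8.08 and 8.03, a difference of -0.15 (SE 0.12) with 1 Bf 140 nM flask inside the DMSO 0.6% range. RARA probe set 216300_x_at read 7.98, 8.03 and 7.86 against 8.23, 7.91 and 8.12, a difference of -0.13 (SE 0.12) that was positive in pair 2. On Bf 140 nM replicate 2 it barely exceeded the bound, at 8.029 against 8.027. Of the other RARA probe sets, 203750_s_at exceeded the bound on 5 arrays and 2 did so on 0. The difference of 203750_s_at was 0.02 (SE 0.23), or -0.23 without DMSO 0.6% replicate 3. Those of 203749_s_at and 211605_s_at were -0.01 (SE 0.13) and 0.13 (SE 0.15), or -0.10 and -0.00 without that array. The remaining RARG probe set, 217178_at, stayed below the bound and was higher in 3 of 3 pairs, with a difference of 0.14 (SE 0.16). RARB is itself a classical target of retinoic acid, through a direct repeat in its promoter. In RefSeq (GRCh38.p14), 1 of the 4 RARB promoter windows holds the repeat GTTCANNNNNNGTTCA 52 bases before the transcription start. This letter pattern, searched on both strands, occurs in 0.057% of 35116 promoters of 300 bases and in no other of the 39 receptors matched to the promoter table. The window, at chr3:25428013-25428312 on the plus strand, is printed with the repeat in capitals because it shows how 1 receptor gene is read by others of the family.
RARB: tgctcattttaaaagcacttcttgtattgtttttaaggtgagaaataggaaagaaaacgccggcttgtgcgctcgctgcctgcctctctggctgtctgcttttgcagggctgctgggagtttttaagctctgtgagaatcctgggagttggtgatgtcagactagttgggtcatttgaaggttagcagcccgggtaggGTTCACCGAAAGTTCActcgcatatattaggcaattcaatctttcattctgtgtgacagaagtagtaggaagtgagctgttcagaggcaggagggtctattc
RARB values were 7.63, 7.41 and 7.48 in Bf 140 nM against 7.68, 7.54 and 7.50 in DMSO 0.6% with probe set 205080_at. This was lower in 3 of 3 pairs, by -0.05, -0.13 and -0.02, and the ranges of the groups overlapped. Probe set 208530_s_at read 7.37, 7.25 and 7.20 against 7.49, 7.32 and 7.39, also lower in 3 of 3 pairs and overlapping, with a difference of -0.12 (SE 0.10). Probe set 208412_s_at, with -0.12 (SE 0.14) and -0.18 without DMSO 0.6% replicate 3, was lower in 3 of 3 pairs as well. Probe sets 208413_at and 217020_at, at -0.04 (SE 0.09) and 0.08 (SE 0.11), were not. None of the 5 passed the threshold, and all were below the bound, where differences are compressed. Other genes that make, carry or respond to retinoic acid gave 15 measured genes, of which 0 passed the threshold and 6 had a difference above 0, with a median of -0.01. The 2 with the lowest unadjusted p were ALDH1A3, an enzyme that makes retinoic acid, at 0.11 (SE 0.14), or -0.01 without DMSO 0.6% replicate 3, and LRAT, which stores retinol as esters, at -0.05 (SE 0.10).

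Of the steroid hormone receptors, the glucocorticoid receptor alone gave a signal over the bound on all arrays. NR3C1, the glucocorticoid receptor, was above the bound on all arrays with probe sets 201865_x_at and 211671_s_at, whose differences were -0.06 (SE 0.12) and 0.01 (SE 0.15). Without DMSO 0.6% replicate 3 the second was -0.11, so that both were below 0. Only THRA, ESRRG and NR3C1 had 2 probe sets above the bound on all 6 arrays, 1 of those of THRA being shared with NR1D1. Of these receptors NR3C1 alone, with all arrays, had opposite signs between its 2 probe sets. With 201865_x_at, the flasks read 8.96, 8.60 and 8.71 against 8.92, 8.71 and 8.82. Probe set 211671_s_at gave 8.50, 8.12 and 8.38 against 8.41, 8.47 and 8.10, and with both probe sets the groups overlapped. NR3C2, the aldosterone receptor, stayed below the bound at 6.60, 6.47 and 6.59 in Bf 140 nM and 6.61, 6.65 and 6.68 in DMSO 0.6%. The 3 Bf 140 nM values lay under the 3 DMSO 0.6% values, with a difference of -0.10 (SE 0.09). PGR, the progesterone receptor, lay between 6.00 and 6.38 and below the bound. The estrogen receptors ESR1 and ESR2 had 9 and 5 probe sets. ESR1 exceeded the bound with 211234_x_at alone, on 2 arrays, while ESR2 did so on 0. Their 14 differences ran from -0.04 to 0.07, with 9 above 0.

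Genes known to follow these receptors, or to hold them ready, did not pass the threshold either. The counts above 0 that follow stand beside 63.2% of all probe sets with a difference above 0. Of 11 glucocorticoid receptor targets measured, 0 passed and 8 had a difference above 0, with a median of 0.06. The liver enzyme gene TAT was lower in Bf 140 nM without overlap, at 6.71, 6.95 and 6.94 against 7.13, 6.96 and 7.16, and stayed under the bound throughout. Its difference was -0.22 (SE 0.11), while NFKBIA, the inhibitor of NF-kappa B, had 0.21 (SE 0.15), or 0.27 without DMSO 0.6% replicate 3. The 10 estrogen receptor targets had 4 differences above 0 and a median of -0.02. The lowest unadjusted p belonged to XBP1, the transcription factor of the unfolded protein response (UPR), at 0.20 (SE 0.22), or -0.01 without DMSO 0.6% replicate 3, and to PGR, the receptor above, at 0.11 (SE 0.12). The chaperones that fold steroid receptors numbered 11, of which 8 had a difference above 0 and 0 passed. STIP1, the adaptor between HSP70 and HSP90, had a difference of 0.31 (SE 0.27) made up of 0.15, -0.10 and 0.89 in the 3 pairs. CDC37, another HSP90 cochaperone, had 0.27 (SE 0.24), made up of -0.04, -0.01 and 0.87. Pair 3 thus set both, and without the DMSO 0.6% array of that pair, the one with the low 5' signal, STIP1 had -0.02 and CDC37 -0.03.

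Thyroid hormone receptor alpha (THRA) is the form that prevails in the nervous system. It had 4 probe sets of its own and 3 shared with NR1D1 (REV-ERB alpha), a heme-binding repressor in the circadian clock. In the RefSeq annotation NR1D1 and THRA are neighbours on opposite strands that overlap at their ends. The RefSeq record behind 204760_s_at is that of NR1D1. Which of the 2 transcripts the other shared probe sets read cannot be told apart here.

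THRA probe set 35846_at had the lowest unadjusted p of the 88 receptor probe sets, 0.0970 in limma, and an adjusted p of 1.00. It read 8.12, 8.20 and 8.03 in Bf 140 nM and 8.31, 8.27 and 8.30 in DMSO 0.6%, above the bound on all arrays. The groups did not overlap, and Bf 140 nM was lower in 3 of 3 pairs, by -0.19, -0.07 and -0.27. The difference was -0.18 (SE 0.09), a fold of 0.884 (95% CI 0.759 to 1.03). Leaving out each array in turn gave -0.22 to -0.13. The unadjusted p was 0.0491 after quantile normalization and 0.0482 without Bf 140 nM replicate 2. In neither case did it pass the adjusted threshold.

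The other 3 probe sets named for THRA alone had differences nearer to 0. Probe set 1316_at read 7.15, 7.23 and 7.33 against 7.34, 7.15 and 7.33, a difference of -0.04 (SE 0.10). Probe set 204100_at read 7.19, 7.55 and 7.27 against 7.33, 7.36 and 7.23, a difference of 0.03 (SE 0.12). Probe set 214883_at read 7.06, 7.19 and 7.10 against 7.20, 7.12 and 6.96, a difference of 0.02 (SE 0.10) that was -0.04 without DMSO 0.6% replicate 3. All 3 lay below the bound on each array and overlapped between groups. Within pairs, 1316_at gave -0.19, 0.08 and -0.00, 204100_at gave -0.14, 0.20 and 0.04, and 214883_at gave -0.13, 0.07 and 0.14. Pair 1 was thus negative and pair 2 positive in each of them.

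The 3 probe sets shared with NR1D1 were lower in Bf 140 nM on average. Probe set 31637_s_at read 8.43, 8.61 and 8.75 against 8.75, 8.57 and 9.10, with a difference of -0.21 (SE 0.16), the lowest of all receptor probe sets. Its groups overlapped, its pairs gave -0.31, 0.04 and -0.35, and without DMSO 0.6% replicate 3 the difference was -0.06. Probe set 204760_s_at read 7.02, 7.31 and 7.00 against 7.31, 7.29 and 7.15, a difference of -0.14 (SE 0.12). Without Bf 140 nM replicate 2 its unadjusted p was 0.0481. Probe set 217476_at read 7.30, 7.49 and 7.18 against 7.54, 7.26 and 7.42, a difference of -0.08 (SE 0.13). In each of the 3, pairs 1 and 3 were negative and pair 2 was positive. Both of the latter probe sets stayed under the bound. THRB, the second thyroid hormone receptor, lay between 6.78 and 7.02, below the bound, with -0.07 (SE 0.10), or -0.01 without DMSO 0.6% replicate 3.

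**Figure D2:**
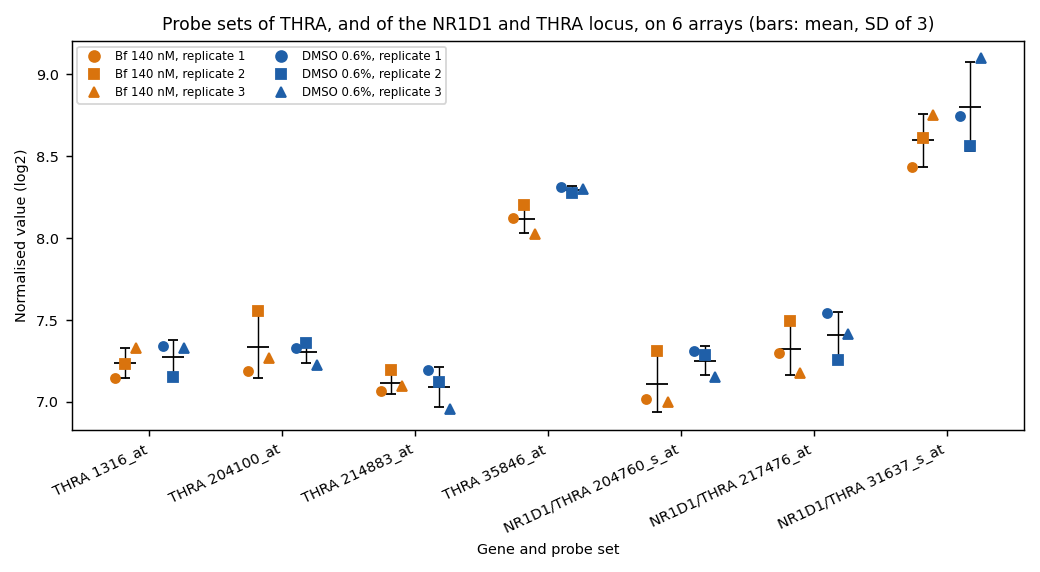
Normalised values (log2) of the 4 THRA probe sets and the 3 shared with NR1D1 on each array, orange for Bf 140 nM and blue for DMSO 0.6%; circles, squares and triangles are replicates 1, 2 and 3, and bars span the mean and SD of each group. THRA 35846_at is the one probe set here whose groups do not overlap, at 8.03 to 8.20 against 8.27 to 8.31.

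Genes that handle or follow thyroid hormone gave 9 measured genes, of which 0 passed, 3 had a difference above 0 and the median was -0.01. The deiodinases DIO1 and DIO2, which activate the hormone, had -0.11 (SE 0.10) and -0.08 (SE 0.10), and both were below the bound.

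The remaining receptors of the clock, the REV-ERB and ROR proteins, compete for the same DNA element, with opposite effects on BMAL1. NR1D2 (REV-ERB beta) read 9.48, 8.99 and 9.21 in Bf 140 nM and 8.88, 9.57 and 8.61 in DMSO 0.6%. The groups overlapped widely. Its difference of 0.21 (SE 0.25) was the highest among the receptors, and the pairs gave 0.60, -0.58 and 0.59. It was 0.00 without DMSO 0.6% replicate 3 and 0.48 without DMSO 0.6% replicate 2, with an unadjusted p of 0.0345 in limma in the second case and an adjusted p above the threshold. Clock proteins bind the E-box CACGTG, which stands 155 and 105 bases before the start in 1 of the 2 NR1D2 promoter windows. The motif, which reads the same on both strands, is present in 7.26% of all promoter windows and in 9.68% of the 93 windows of the 39 receptors matched. ESR2, NR2C1, NR2F2, NR5A1, PGR and RARA also have a window with an E-box. Whether the E-boxes of NR1D2 have a part in its difference was not tested. The RefSeq GRCh38.p14 window at chr3:23945871-23946170, plus strand, is shown with both E-boxes in capitals, since NR1D2 is the receptor with the highest difference.
NR1D2: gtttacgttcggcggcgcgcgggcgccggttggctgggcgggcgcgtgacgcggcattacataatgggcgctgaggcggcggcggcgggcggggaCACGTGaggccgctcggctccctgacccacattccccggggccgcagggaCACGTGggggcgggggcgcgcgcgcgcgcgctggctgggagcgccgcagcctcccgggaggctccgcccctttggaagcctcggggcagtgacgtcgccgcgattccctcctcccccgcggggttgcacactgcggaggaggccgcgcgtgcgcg
A match of letters in these windows is a description and does not show that a factor was bound. The half-site AGGTCA, which most of the family reads, was found on either strand in 17.2% of the 93 receptor windows and in 13.8% of all.

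RORB, a receptor of retina and brain, read 8.27, 8.28 and 8.27 in Bf 140 nM and 8.45, 8.56 and 7.30 in DMSO 0.6%. The low value is that of DMSO 0.6% replicate 3, and the other arrays lay between 8.27 and 8.56. The difference was 0.17 (SE 0.31) with that array and -0.23 without it. RORA stayed below the bound, and its probe set 210426_x_at read 6.59, 6.73 and 6.74 against 6.41, 6.53 and 6.69. Bf 140 nM was higher in 3 of 3 pairs and the groups overlapped, with a difference of 0.15 (SE 0.11), or 0.22 without DMSO 0.6% replicate 3. The other RORA probe set, 210479_s_at, was higher in 1 of 3 pairs, with 0.07 (SE 0.14), or 0.18 without that array. The 15 clock genes measured had 9 differences above 0 and a median of 0.02, and 0 passed. NFIL3, a repressor in the clock output, had 0.22 (SE 0.15), or 0.08 without DMSO 0.6% replicate 3, and CSNK1E, the kinase that marks PER proteins for decay, had -0.18 (SE 0.13).

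The receptors of fatty acids, oxysterols and foreign compounds that had a probe set were at or near background with 1 exception. LXR beta (NR1H2), the bile acid receptor FXR (NR1H4) and PXR (NR1I2) had none, so their level is not known here. PPARD, a fatty acid receptor found in most tissues, read 9.49, 9.42 and 9.75 against 9.46, 9.61 and 9.55 with probe set 37152_at, so the groups overlapped, with a difference of 0.02 (SE 0.12). PPARA, which drives fatty acid oxidation, stayed below the bound with both probe sets. Its probe set 206870_at read 6.98, 6.92 and 6.34 against 6.72, 6.82 and 6.32, higher in 3 of 3 pairs by 0.26, 0.10 and 0.02, with a difference of 0.13 (SE 0.21). Without DMSO 0.6% replicate 3 the sign turned, at -0.02. PPARG, the receptor of fat cells, lay between 6.60 and 7.12. NR1H3 (LXR alpha), a sensor of oxysterols, lay between 7.05 and 7.47 and was higher in 3 of 3 pairs, with a difference of 0.12 (SE 0.13), or 0.04 without DMSO 0.6% replicate 3. CAR (NR1I3) lay between 6.67 and 7.04, with -0.10 (SE 0.12). None of these 4 exceeded the bound on any array.

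Target genes of these receptors were described in the same way. The 17 LXR and PPAR targets had 12 differences above 0 and a median of 0.06, and 0 passed. LPL, the lipase of circulating lipids, had -0.15 (SE 0.11), and MYLIP, which degrades the LDL receptor, had 0.16 (SE 0.14), or 0.04 without DMSO 0.6% replicate 3. The 10 targets of PXR, CAR and FXR had 6 differences above 0 and a median of 0.01, and 0 passed. CYP3A4, the main drug-oxidising enzyme of liver, had -0.13 (SE 0.10), and the bile salt exporter ABCB11 had 0.10 (SE 0.10). Of 17 coactivators and corepressors, which all these receptors share, 13 had a difference above 0 with a median of 0.08, and 0 passed. GPS2, a subunit of the NCoR corepressor complex, had 0.23 (SE 0.16), and the coactivator NCOA1 had 0.17 (SE 0.14). Without DMSO 0.6% replicate 3 these were 0.11 and 0.06. Over all probe sets tested, 63.2% of the differences were above 0 and the median was 0.03. Without that array it was 0.01, and the medians turned to -0.01 for the coregulators, -0.02 for the LXR and PPAR targets, -0.03 for the PXR, CAR and FXR targets, -0.02 for the chaperones and -0.06 for the clock genes, while the thyroid hormone list turned to 0.02. The glucocorticoid, estrogen and retinoid lists kept their sign, at 0.05, -0.02 and -0.02.

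The vitamin D receptor VDR and the orphans of endocrine and liver tissue were below the bound on all arrays. VDR had 4 probe sets, of which 213692_s_at read 7.29, 7.27 and 7.11 against 7.28, 7.35 and 7.40. Its groups overlapped narrowly, with a difference of -0.12 (SE 0.10), while the other 3 had -0.01 to 0.06. NR0B2 (SHP), a receptor without a DNA-binding domain that represses others, read 7.45, 7.66 and 7.46 in Bf 140 nM and 7.41, 7.43 and 7.39 in DMSO 0.6%. All 3 Bf 140 nM values were higher, with a difference of 0.11 (SE 0.10). The steroidogenic regulator NR5A1, its relative NR5A2, the germ cell receptor NR6A1, HNF4G of gut and kidney, NR2E1 (TLX) of neural stem cells and NR2E3 of photoreceptors had differences between -0.11 and 0.10.

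Across the family, none of the 88 probe sets passed an adjusted p of 0.10 in limma, against 0.00% of all 22215. At an unadjusted p under 0.05 there were 0 receptor probe sets, against 0.0765% of all, or 17 probe sets. With the replicate number as a block the receptor count at that level was again 0, against 0.414% of all, or 92 probe sets. None passed after adjustment. Both shares of all probe sets lay far under the share of 0.05 expected where nothing changes. The unadjusted p-values thus ran high in these data and the confidence intervals may be too wide, for a cause that was not tested. The lowest unadjusted p with the block was 0.123. The differences of the receptors ran from -0.21 to 0.21, within the range of -0.57 to 0.70 over all probe sets.

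The groups did not overlap for 3 receptor probe sets (3.41%), against 2.66% of all. NR0B2 was the 1 case with Bf 140 nM higher, against 1.68% of all, and THRA 35846_at and NR3C2 were the 2 with Bf 140 nM lower, against 0.981%. These shares were near the background. The 3 pairs had 1 sign for 15 receptor probe sets (17.0%), against 13.7% of all. Of these, 9 were higher in Bf 140 nM in each pair, against 8.96% of all, and 6 were lower, against 4.70%. The difference was above 0 for 47 receptor probe sets (53.4%), against 63.2% of all. When each array was centred on its median, 31 (35.2%) were above 0, against 49.1% of all. The median difference was 0.00 over the receptors and 0.03 over all probe sets, and it was -0.03 and -0.00 after centring. For the 16 receptor probe sets above the bound on all arrays the median was -0.03, against 0.05 for all such probe sets. In pairs 1, 2 and 3 the receptor medians were -0.03, 0.06 and -0.01, so their sign was not shared.

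The precision allowed a bound on the changes. The 95% confidence interval lay within 1.5-fold in both directions for 82 receptor probe sets (93.2%), against 85.7% of all. It lay within 2-fold for all 88, against 97.8% of all. Outside 1.5-fold reached the intervals of ESRRG 209966_x_at, RXRB 215099_s_at, NR2F6 209261_s_at, RORB, NR1D2 and PPARA 206870_at. With the replicate number as a block the count was 86 (97.7%), against 97.5% of all, and the 2 that reached further were RORB and NR1D2. These folds are on the deposited scale, so for the 62 probe sets below the bound a larger true change may lie within them.

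**Figure D3:**
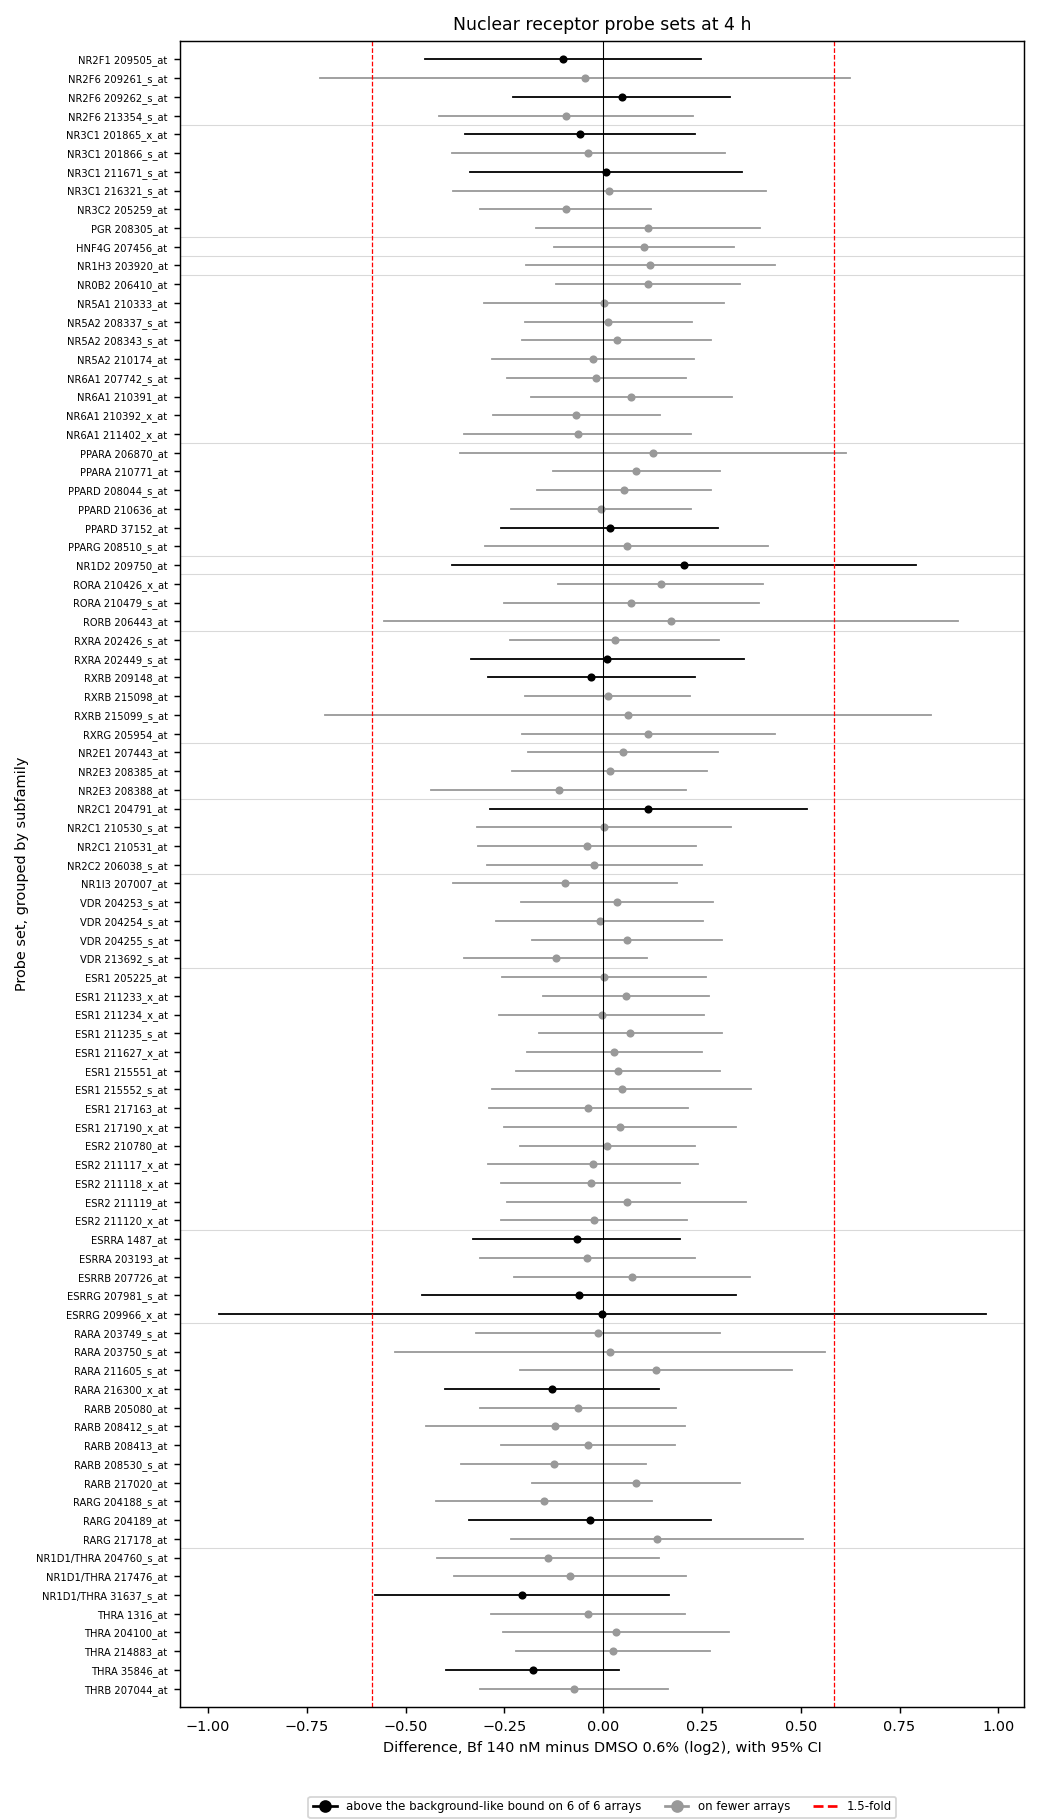
Difference between Bf 140 nM and DMSO 0.6% (log2, points) with its 95% confidence interval (lines) for the 88 receptor probe sets, grouped by subfamily; black marks probe sets above the background-like bound on 6 of 6 arrays. Every interval spans 0, and 82 stay between the dashed lines at 1.5-fold.

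Probe sets of 1 receptor often differed in sign. Of the 21 receptors with 2 or more probe sets, 15 had differences of both signs and 6 had 1 sign, namely PPARA, NR1D1, RORA, RXRA, ESRRA and ESRRG. The 3 probe sets of NR1D1 are those shared with THRA. For ESR1, 7 of 9 differences were above 0, and for RARB 4 of 5 were below 0. Without DMSO 0.6% replicate 3, PPARA and RXRA had both signs, and the 2 ESRRG differences turned to above 0. In contrast, THRA, RARA, PPARD, NR2F6 and NR2E3 then had 1 sign. The remaining 16 receptors had 1 probe set, so no such comparison could be made.

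The values also varied with the replicate number. For 81 receptor probe sets (92.0%) the range of the 3 replicate-number means exceeded the size of the treatment difference, against 89.6% of all. A range over 3 means tends to exceed a difference of 2 means even where the number has no effect. Its median was 0.18 over the receptors, where the median size of the treatment difference was 0.05. In 10 receptor probe sets (11.4%) both replicate 3 arrays lay above the other 4, against 14.5% of all, and in 22 (25.0%) both lay below, against 20.1%. An F-test of the replicate number in limma, run on all probe sets, passed an adjusted p of 0.10 for 5 receptor probe sets (5.68%), against 11.0% of all.

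The clearest of these was ESRRG 209966_x_at, with 10.04, 10.14 and 11.31 in Bf 140 nM and 9.95, 10.35 and 11.20 in DMSO 0.6%. Replicate 3 of both treatments was the high one, the replicate means spanned 1.26 and the adjusted p was 0.0021 in limma, while the treatment difference was -0.00 (SE 0.41, and 0.12 with the replicate block). Without DMSO 0.6% replicate 3, which leaves replicate 3 with 1 array, the difference was 0.35. The second ESRRG probe set spanned 0.40 over the same means, with an adjusted p of 0.249. RXRB 215099_s_at went the other way, at 7.86, 8.13 and 7.34 against 8.01, 8.13 and 7.00, a span of 0.96 with an adjusted p of 0.0107 in limma. NR2F6 209261_s_at was likewise low in replicate 3, at 8.23, 8.52 and 7.72 against 8.41, 8.56 and 7.63, with a span of 0.86 and an adjusted p of 0.0124. The NR2F6 probe set 209262_s_at spanned 0.12, and RXRB 209148_at spanned 0.23. PPARA 206870_at and RARA 203750_s_at spanned 0.55 and 0.60, with adjusted p of 0.0529 and 0.0934, and both were low in replicate 3. The replicate 3 arrays also had the highest beta-actin differences between the 3' and 5' ends of their treatment, 0.89 in Bf 140 nM and 2.21 in DMSO 0.6%, and the part of RNA completeness in these spans was not tested.

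**Figure D4:**
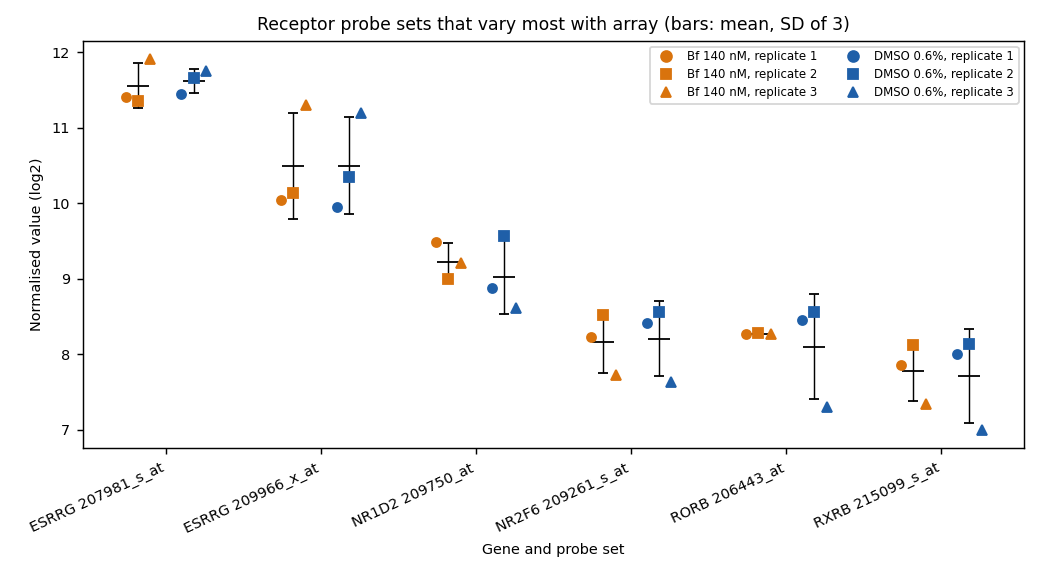
Normalised values (log2) on each array of 6 receptor probe sets, orange for Bf 140 nM and blue for DMSO 0.6%. Shown are NR1D2, RORB and both ESRRG probe sets. NR2F6 209261_s_at and RXRB 215099_s_at were added for their replicate-number F-test, with adjusted p of 0.0124 and 0.0107 in limma. Circles, squares and triangles are replicates 1, 2 and 3, and bars span the mean and SD of each group. The 2 triangles of ESRRG 209966_x_at, at 11.31 and 11.20, stand above its other 4 values, and those of NR2F6 209261_s_at and RXRB 215099_s_at stand below theirs.

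**Figure D5:**
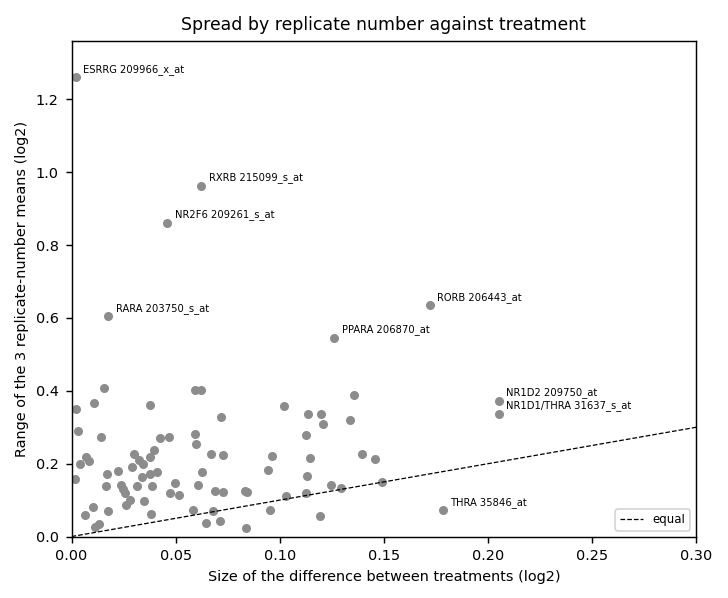
Range of the 3 replicate-number means (log2) against the size of the difference between treatments (log2), 1 point for each of the 88 receptor probe sets; the dashed line marks equal values. All but 7 points lie above the line, ESRRG 209966_x_at highest at 1.26, and THRA 35846_at lies under it at 0.07.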

How the data were processed

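Biotin-labelled RNA of 3 Bf 140 nM and 3 DMSO 0.6% flasks, collected at 4 h, was hybridised to 6 Affymetrix arrays. The authors computed probe intensities with GCOS and applied variance-stabilizing normalization (justvsn) in R 2.5.0 (version per the submitters' processing notes), so the deposited values are on a generalised log2 scale. The step that joined probes into sets is not stated in the sources read here. Arrays carry no read depth, and their number limits the precision. The base of the logarithm was taken as 2 from the range of the values.

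Of the deposited probe sets, 62 controls were set aside and 22215 were tested. Current gene symbols were found through the platform annotation and the RefSeq gene table: 19064 probe sets had 1 symbol, 1043 several and 2108 none. No data column was left unused (0). Promoter windows of 300 bases, 250 before and 50 after the start, came from RefSeq (GRCh38.p14), and 39 of the receptors matched. Differences were fitted with limma 3.58.1 in R 4.3.3, unpaired and two-sided, with Benjamini-Hochberg adjustment over all of them and 0.10 as the threshold. The methods' permutation-based SAM test was not run. The limma steps were tested on simulated data. The p-values measure the spread between flasks. The background-like bound is the 90th percentile, on each array, of 53 probe sets of 36 genes restricted to other tissues.

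Values on every array were given for all probe sets of THRA and NR1D1, for those whose groups did not overlap and for the 6 with the lowest unadjusted p; other array values shown were chosen after they were seen. Of each of 9 lists of partner and target genes, the 2 with the lowest unadjusted p were named, each gene by its brightest probe set. The members and lists were chosen with earlier results of these data known. Both groups carry replicate numbers 1, 2 and 3 in the labels. Deviations from the group mean correlated between arrays of 1 number at 0.60, 0.23 and 0.57, each over the 0.1 required for pairing. A blocked fit on these numbers was therefore run beside the unpaired one. The correlation was also 0.264 between Bf 140 nM replicate 1 and DMSO 0.6% replicate 2. Between Bf 140 nM replicate 2 and DMSO 0.6% replicate 1 it was 0.103, and the other unlike combinations were negative. This measure thus does not single out pair 2. Other alternatives were quantile normalization, centring on the array median, a filter on the mean, the beta-actin difference as a covariate and leaving out each array. The F-test of the replicate number, the counts of pairs with 1 sign, the blocked confidence intervals and the settings run on NR1D2 and RORB were added after seeing the data.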

Additional observations from a re-analysis of the deposited data

How the results depend on the processing

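The count of receptor probe sets past the threshold was 0 in every setting run, the replicate block included, and the pairing by replicate number changed no call. The median difference of the receptors ran from -0.03 to 0.02 over the settings. The count without overlap and with Bf 140 nM higher went from 1 to 0 after centring and to 0 among probe sets with a mean above the median probe set, where the count with Bf 140 nM lower went from 2 to 1, since fewer probe sets enter. Leaving out 1 array, which leaves fewer values to overlap, gave 2 to 8 higher and 4 to 7 lower. Receptors above the background-like bound numbered 14, against 15 and 10 with the 75th and 95th percentile as the bound, 13 with the array median and 14 or 15 without 1 array.

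Of 155 comparisons of 15 probe sets with an alternative, 145 kept the direction and 10 reversed. Under the replicate block and the filter on the mean the difference could not change, so those comparisons kept it by construction. After centring, THRA 204100_at became -8.1e-05 and THRA 214883_at became -0.0078. With the beta-actin covariate, THRA 214883_at became -0.0071 and RORB -0.015. Leaving out each array in turn gave -0.076 to 0.106 for THRA 204100_at, -0.042 to 0.077 for THRA 214883_at, -0.0996 to 0.0056 for THRA 1316_at and -0.23 to 0.40 for RORB. The cause was not tested.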
